A study of Mus musculus with 6 samples.

Results

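The genes described here build the peroxisome or work inside it. They are 35 genes chosen by symbol from a deposited table of 24421 mouse genes: 13 peroxins and 22 enzymes or transporters of peroxisomal fatty acid oxidation, hydrogen peroxide handling and related oxidation steps. They were picked by symbol and not by a cutoff on a measured value, but with earlier results of these data known. All 35 were found in the table with a mean above 0. Hepatic mRNA was sequenced from 3 WT mice and 3 heterozygous PAI-1 deficient mice (*Pai-1*+/-), on standard chow with free access to food. The strain is C57BL/6 in the sample labels and C57BL/6J in the study's text. The age is 21 weeks in the labels and slightly lower in the study's text, which describes the WT mice as littermate controls. The study's methods describe the mice as male and give crosses of *Pai-1*-/- with WT mice as the source of the heterozygotes. *Pai-1* was thus reduced in the whole animal and not in the liver alone. Such a cross gives heterozygotes only, so how WT littermates arose is not clear from the study's text. The genotypes could not be compared here. The 6 columns of the deposited count table are headed by animal numbers that match none of the labels, and the authors' own fold changes and p-values were not used. The values below are the authors' mean normalized count of each gene, averaged over all libraries of both genotypes. Because a column that matches no sample was put to no use, values per mouse, SDs and the depth of each library were not analysed here, and every level describes these livers as a group.

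Peroxisomes are single-membrane organelles that are abundant in hepatocytes. They shorten very long chain and branched fatty acids and the side chains of bile acid precursors by beta-oxidation, remove a carbon from phytanic acid by alpha-oxidation, and hold oxidases that make hydrogen peroxide together with catalase, which breaks it down. Their matrix proteins are made in the cytosol and carried in by the receptors PEX5 and PEX7, which recognise short targeting signals, while other peroxins dock the receptors, recycle them, insert membrane proteins or divide the organelle. Many of the oxidation genes are known targets of the nuclear receptor PPARalpha, which is activated by fatty acids.

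The mRNAs of the enzymes and transporters were far more abundant than those of the peroxins. To compare genes of different length, each mean normalized count was divided by the length in kilobases of the longest annotated transcript, and this level per kb is used below unless another scale is named. The median level was 6664 per kb over the 22 enzymes and transporters and 572 per kb over the 13 peroxins, a ratio of 11.7. The middle 50% of the enzymes and transporters lay between 2898 and 18754 per kb and that of the peroxins between 339 and 825 per kb. The ratio was 5.82 when coding length was used in place of transcript length and 6.99 with no correction for length, so its size depended on the length chosen while the enzymes were higher on each scale. Of the 22 enzymes and transporters, 18 lay above the highest peroxin per kb, 14 did so per coding kb and 17 without length. Per kb, 2 of the 22, *Abcd2* and *Acox3*, lay below the median peroxin and below every peroxin except *Pex10*. These are descriptions of levels with no test, because genes are not replicates and the columns per animal were not used. Among the 12499 genes with a mean normalized count above 10 and a length, the median level was 129 per kb, and 34 of the 35 genes exceeded it. *Pex10* was the exception. Per kb of all annotated exon bases 33 of the 35 exceeded the median, and *Acox3* was below it as well.

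**Figure D1:**
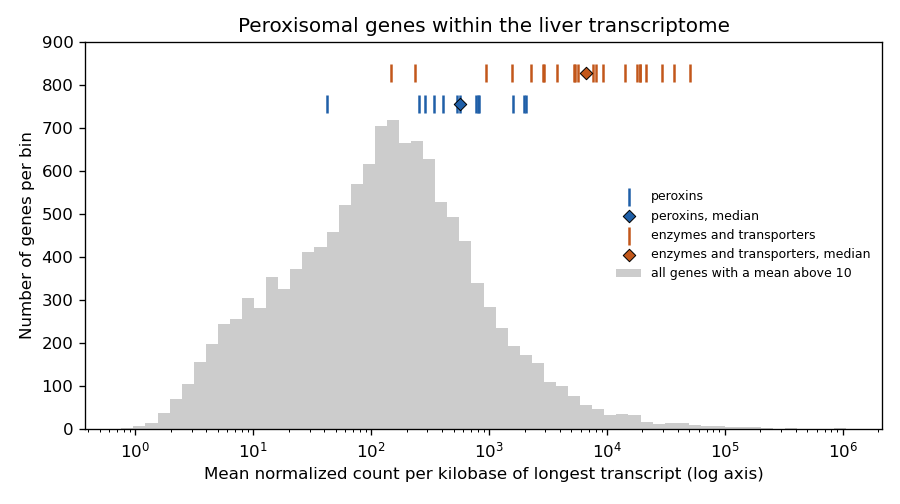
The horizontal axis gives the mean normalized count per kilobase of longest transcript on a log axis, and the bars count all genes with a mean normalized count above 10. Marks above the bars are the 13 peroxins and the 22 enzymes and transporters with their medians of 572 and 6664 per kb as diamonds, and most enzymes lie in the upper tail of the distribution.

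On the scale of the mean normalized count itself, the 35 genes held 2.11% of all normalized reads of the average library. The enzymes and transporters held 2.01% and the peroxins 0.0993%. The 5 highest genes, *Cat*, *Scp2*, *Phyh*, *Ehhadh* and *Uox*, accounted for 55.7% of the reads of the 35. Among the 17678 genes with a mean above 0, *Cat* ranked 37, *Scp2* 44 and *Phyh* 48. Of the 100 most abundant genes 7 were enzymes of this group, and of the 500 most abundant 15 were enzymes or transporters and 0 were peroxins. The peroxins that reached the 1000 most abundant genes were *Pex19*, at rank 687, and *Pex5*, at rank 823.

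**Figure D2:**
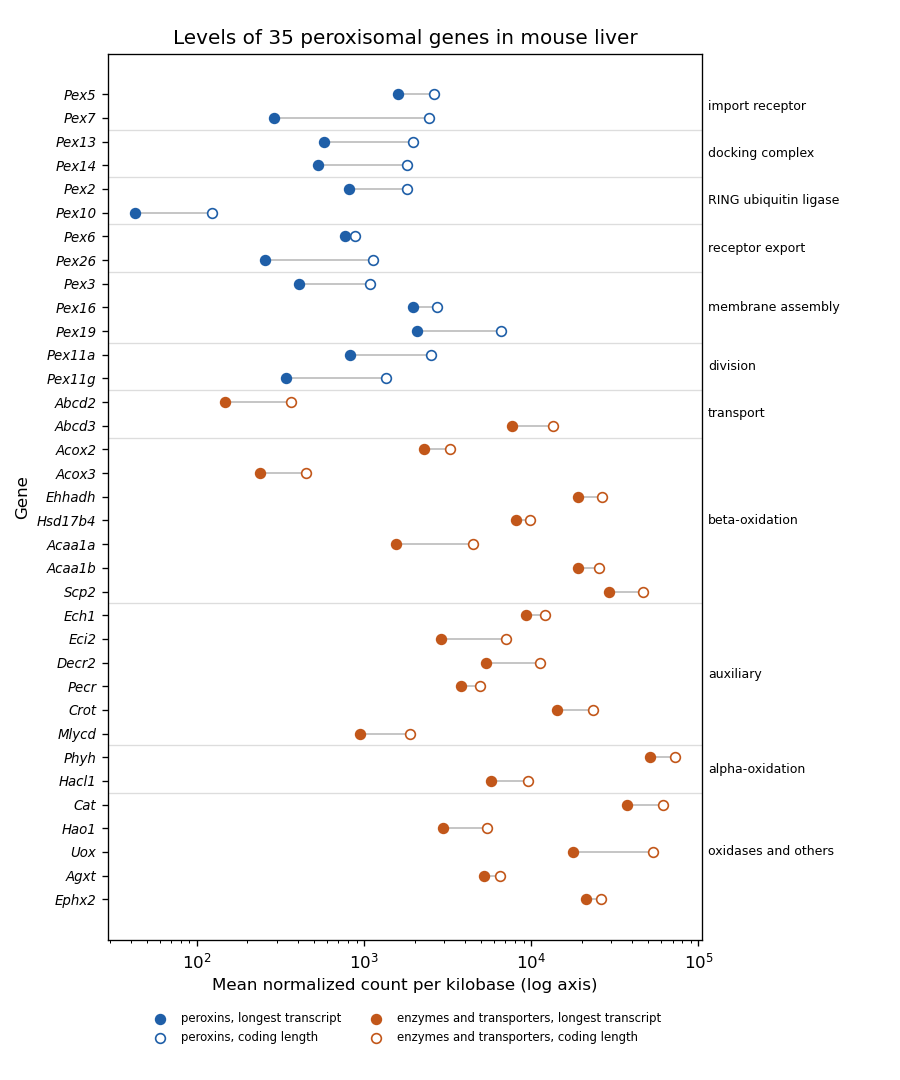
Each row is a gene and the horizontal log axis gives the mean normalized count per kilobase, with filled circles for the longest transcript and open circles for the coding length. The levels per kb of longest transcript run from 42.5 for *Pex10* to 51033 for *Phyh*. On that scale *Abcd2*, *Acox3*, *Mlycd* and *Acaa1a* lie within the range of the peroxins, and the other 18 enzymes and transporters lie above it. *Abcd2* and *Acox3* lie below every peroxin except *Pex10*.

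Within the import machinery, PEX5 binds the C-terminal targeting signal carried by most matrix proteins and PEX7 binds an N-terminal signal carried by a few, such as thiolase and PHYH. *Pex5* had a mean normalized count of 5039 and *Pex7* of 2337. The distance between them rested on length. The ratio of *Pex5* to *Pex7* was 5.55 per kb, because the longest annotated *Pex7* transcript has 8099 bases of which 954 are coding, and 1.07 per coding kb. PEX13 and PEX14 form the docking site for loaded receptors at the membrane, and their mRNAs lay at 572 and 532 per kb, a ratio of *Pex14* to *Pex13* of 0.930, which was 0.634 per kb of all annotated exon bases. The *Pex14* value carries an uncertainty from *Gm17029*, a gene on the opposite strand that shares up to 1776 exonic bases with it. *Gm17029* has no row in the authors' table, so whether its reads were counted for *Pex14* cannot be seen.

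After cargo release, PEX5 is ubiquitinated by a complex of RING finger proteins that includes PEX2 and PEX10, and is then pulled from the membrane by an ATPase that contains PEX6 and is anchored by PEX26. *Pex2* stood at 809 per kb, within the range of the other peroxins. *Pex10* stood at 42.5 per kb, with a mean normalized count of 119, and ranked 9558 of 17678. The next peroxin above it, *Pex26*, was 5.96 times as high per kb. *Pex10* was the lowest peroxin on all 4 scales tried, with a gap to the next of 7.23 times per coding kb, 5.09 times per kb of all annotated exon bases and 8.19 times without length. Leaving it aside, the peroxins spanned 8.17 times from lowest to highest per kb. *Pex10* lies on chromosome 4, at 155067016 to 155072433 on the plus strand of GRCm38, its annotated exons overlap those of no other gene, and 0 of the 75-base stretches of its longest transcript recur in another gene's transcripts. *Pex6* and *Pex26* had 767 and 253 per kb. Their order depended on the length, with *Pex6* higher by 3.03 times per kb and lower, at a ratio of 0.778, per coding kb.

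The remaining peroxins place proteins in the membrane and divide the organelle. PEX19 is the cytosolic chaperone of newly made peroxisomal membrane proteins, PEX3 is its anchor at the membrane and PEX16 brings PEX3 there. *Pex19* (2068 per kb) and *Pex16* (1970 per kb) were the highest peroxins per kb, and *Pex3* was at 410 per kb. Without length *Pex19* (5883) was again the highest, but *Pex5* (5039) lay above *Pex16* (2742). The excess of *Pex19* over *Pex3* was 5.05 times per kb and between 4.85 and 6.03 times on the other scales. PEX11 proteins elongate the peroxisome before it divides. *Pex11a*, the form that peroxisome proliferators induce in liver, was 2.44 times as high as *Pex11g* per kb (825 and 339) and 1.86 times per coding kb. In *Pex11g*, 47.4% of the 75-base stretches also occur in transcripts of *Gm44775* on the opposite strand, so its value is uncertain. *Gm44775* has no row in the authors' table either.

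Acyl-CoA esters enter the organelle through ABC half-transporters. *Abcd3*, which carries branched-chain, dicarboxylic and bile acid precursor substrates, reached 7628 per kb, whereas *Abcd2*, which carries very long and polyunsaturated chains, was at 147 per kb and was the lowest of the 22 enzymes and transporters. Per kb of all annotated exon bases the lowest of the 22 was *Acox3*. *Abcd3* was 51.7 times as high per kb and at least 29.4 times as high on each of the 4 scales, the widest gap among the pairs of like function compared here.

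The genes of the beta-oxidation spiral spanned 123 times per kb, from *Acox3* to *Scp2*. The span between the same genes was 81.5 times without length and 270 times per kb of all annotated exon bases. Of the acyl-CoA oxidases in this set, *Acox2*, which acts on the side chain of bile acid precursors and on branched fatty acids, had 2282 per kb, and *Acox3*, which acts on branched fatty acids, had 236 per kb, a ratio of 9.65 (7.25 per coding kb). The next steps are carried out by multifunctional enzymes of opposite stereochemistry. *Ehhadh*, the L-bifunctional enzyme, was 2.36 times as high per kb as *Hsd17b4*, the D-bifunctional enzyme (19141 and 8105 per kb), and at least 2.62 times as high on each of the other scales. In abundance *Ehhadh* ranked 64 and *Hsd17b4* 183. In the closing thiolase step, *Scp2*, which also encodes a sterol carrier protein from a downstream start, had 29026 per kb, *Acaa1b* 19070 per kb and *Acaa1a* 1555 per kb.

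*Acaa1a* and *Acaa1b* are copies on chromosome 9 that do not adjoin, at 119339676 to 119350299 on the plus strand and 119148023 to 119157093 on the minus strand. Reads of 75 bases cannot always separate them. Of the 75-base stretches of the longest *Acaa1b* transcript 37.8% occur in another gene, mainly *Acaa1a*, and 12.5% of those of *Acaa1a* occur in *Acaa1b*. The ratio of *Acaa1b* to *Acaa1a* was 12.3 per kb and 5.65 per coding kb, since the coding length of both is 1272 bases. How the authors' counting treated reads that fit both genes is not given in the sources used here, so the size of this ratio is uncertain. The *Scp2* value carries a similar doubt, because 36.8% of its stretches recur in other genes, mainly the pseudogene *Scp2-ps2*. This pseudogene has no row in the authors' table.

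The auxiliary enzymes prepare unusual substrates or export products. *Ech1*, a dienoyl-CoA isomerase, had 9304 per kb, *Decr2*, a dienoyl-CoA reductase, 5322 per kb, *Pecr*, an enoyl-CoA reductase, 3789 per kb and *Eci2*, an enoyl-CoA isomerase, 2883 per kb. *Crot*, which attaches carnitine to medium-chain products so that they can leave the organelle, was the highest of these 6 genes with 14314 per kb. *Mlycd*, which decarboxylates malonyl-CoA in peroxisomes, mitochondria and cytosol, was the lowest with 942 per kb. In alpha-oxidation, *Phyh*, the phytanoyl-CoA hydroxylase, had 51033 per kb, the highest level per kb of the 35 genes, and *Hacl1*, the lyase of the following step, had 5701 per kb. *Phyh* exceeded *Hacl1* by 8.95 times per kb and 4.43 times without length. For *Hacl1*, 49.4% of the 75-base stretches occur in other genes, chiefly *Gm49387*, which overlaps it on the same strand. *Gm49387* has no row in the authors' table, so the *Hacl1* count was not divided with a listed gene of that name.

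Among the oxidases and their partners, *Cat*, which encodes catalase, had a mean normalized count of 96966, the highest of the 35, and 37109 per kb. *Uox*, the urate oxidase that humans lack, had 17808 per kb and *Hao1*, the glycolate oxidase, 2944 per kb. *Cat* was 12.6 times as high as *Hao1* per kb and 2.08 times as high as *Uox*. The last ratio depended on the length, from 1.14 per coding kb to 3.81 per kb of all annotated exon bases. *Agxt*, the aminotransferase that removes glyoxylate made by HAO1, had 5204 per kb, and *Ephx2*, the soluble epoxide hydrolase found in cytosol and peroxisomes, had 21363 per kb.

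Promoter composition played no part in the choice of the genes and differed in its median between peroxins and enzymes. RefSeq promoter windows on GRCm38.p6, from 250 bases before to 50 after each annotated start, were found for 30 of the 35 genes (11 peroxins and 19 enzymes or transporters). Their CpG content was measured as the number of CG pairs over that expected from the C and G content of the window, with the median over windows where a gene has several. The median ratio was 0.840 in the peroxins and 0.515 in the enzymes and transporters. It was above 0.6 in 9 of 11 peroxins, in 8 of 19 enzymes and transporters and in 68.2% of the 9910 genes with a mean normalized count above 10 and a window. In the 500 most abundant genes of the table, of which 382 have a window, the share was 41.4%, close to that of the enzymes. *Cat*, *Uox*, *Hao1* and *Agxt* lay between 0.136 and 0.450. High level and high CpG content did occur together, as in *Abcd3* (1.04), *Ech1* (0.925) and *Crot* (0.797). No test was made of these differences.

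**Figure D3:**
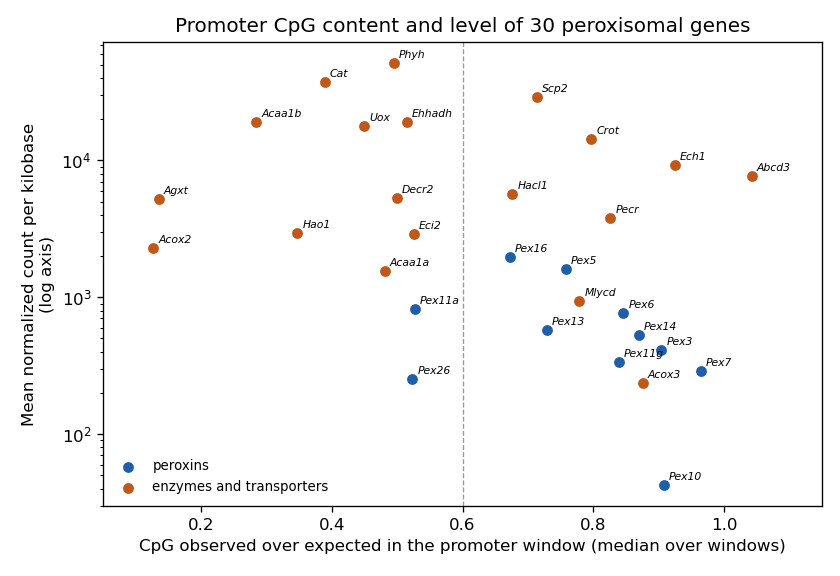
The horizontal axis is the CpG ratio of the promoter window and the vertical log axis the mean normalized count per kilobase, with a dashed line at 0.6 and a point for each of 30 genes. Of the peroxins, 9 of 11 lie to the right of the line, and the 4 genes *Cat*, *Uox*, *Hao1* and *Agxt* lie to its left.

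The windows of *Pex3*, at chr10:13553093-13553392 on the minus strand, and *Agxt*, at chr1:93134990-93135289 on the plus strand, are shown as examples of a CpG-rich peroxin promoter and a CpG-poor enzyme promoter, 5′ to 3′ on the strand of the gene. Capitals mark CG pairs, of which *Pex3* has 28 and *Agxt* 3.
Pex3: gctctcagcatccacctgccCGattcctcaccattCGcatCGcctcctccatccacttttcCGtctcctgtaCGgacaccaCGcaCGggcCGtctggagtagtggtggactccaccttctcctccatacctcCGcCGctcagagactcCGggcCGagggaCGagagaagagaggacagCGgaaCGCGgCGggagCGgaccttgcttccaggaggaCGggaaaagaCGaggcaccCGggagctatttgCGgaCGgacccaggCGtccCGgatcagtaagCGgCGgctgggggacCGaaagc
Agxt: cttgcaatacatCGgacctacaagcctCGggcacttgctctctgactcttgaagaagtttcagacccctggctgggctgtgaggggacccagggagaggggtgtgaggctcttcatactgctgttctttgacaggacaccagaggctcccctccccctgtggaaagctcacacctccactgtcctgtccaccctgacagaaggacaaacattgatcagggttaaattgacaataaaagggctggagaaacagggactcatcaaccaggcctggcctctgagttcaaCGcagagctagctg

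The windows of the thiolase copies are shown because their genes are close copies with unlike levels. Capitals mark the CCAAT box, searched on both strands as CCAAT, which occurs 4 times in each window. In *Acaa1b* an overlapping pair on opposite strands counts as 2 of these. The *Cat* window also holds it 4 times. The box was found in 10 of 21 windows of enzymes and transporters, in 4 of 14 peroxin windows and in 37.4% of all 32841 windows, of which 1.06% hold it at least 4 times. A global alignment of these windows of 300 bases had 342 columns, gaps included, of which 51.8% were identical. No unrelated windows were aligned, so this value does not show that the promoters are alike. *Acaa1a* lies at chr9:119341044-119341343 on the plus strand and *Acaa1b* at chr9:119157044-119157343 on the minus strand.
Acaa1a: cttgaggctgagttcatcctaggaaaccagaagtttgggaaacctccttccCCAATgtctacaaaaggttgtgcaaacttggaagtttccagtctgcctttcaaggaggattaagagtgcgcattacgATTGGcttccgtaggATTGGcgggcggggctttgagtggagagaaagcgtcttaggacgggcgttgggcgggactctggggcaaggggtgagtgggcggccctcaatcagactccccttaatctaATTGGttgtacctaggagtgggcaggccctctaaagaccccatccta
Acaa1b: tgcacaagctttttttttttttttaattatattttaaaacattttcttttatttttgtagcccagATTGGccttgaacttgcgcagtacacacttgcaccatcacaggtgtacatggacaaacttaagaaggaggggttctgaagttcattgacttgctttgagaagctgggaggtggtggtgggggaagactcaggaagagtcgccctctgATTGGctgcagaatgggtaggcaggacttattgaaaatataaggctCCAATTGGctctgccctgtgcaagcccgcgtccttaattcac

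Other short motifs were searched on both strands in the 35 windows of the 30 genes. A TATA box, as TATAAA, was found in 3 of 14 peroxin windows, in 0 of 21 windows of enzymes and transporters and in 13.6% of all windows. A GC box, as GGGCGG, was found in 10 of 14 peroxin windows, 11 of 21 windows of enzymes and transporters and 35.7% of all windows. All windows include those of genes low or absent here. The CpG ratio was above 0.6 in 35.6% of all genes with a window and in 68.2% of those with a mean above 10. For each motif, the CCAAT box included, the share in expressed genes was not counted. Windows were counted and not genes, and *Pex5* supplied 3 of the 14 peroxin windows, some of which overlap. The exact direct repeat of AGGTCA with a spacing of 1 base, the core of a PPARalpha response element, was found in 0 of the 35 windows and in 0.0396% of all windows. Such elements often lie outside windows of this length or depart from these exact letters, so its absence here says nothing about the receptor.

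A further 24 peroxisomal genes were followed by their levels alone. Of these 22 had a mean normalized count above 10 and 6 ranked among the 500 most abundant genes. Their median was 661 per kb, above that of the peroxins (572), but 1283 per coding kb, below that of the peroxins (1814), and it was below the median of the enzymes and transporters on each scale. The highest was *Slc27a2*, a very long chain acyl-CoA synthetase and fatty acid transporter, with 27892 per kb. Next per kb was *Baat*, which conjugates bile acids to amino acids, with 5756 per kb. *Baat* was not the second highest per coding kb or without length. The lowest were *Dao*, the D-amino acid oxidase, and *Hao2*, a hydroxyacid oxidase, with mean normalized counts of 0.545 and 2.64. Next above them were *Far1* (15.4 per kb) and *Agps* (54.5 per kb) of ether lipid synthesis, whereas *Gnpat*, the acyltransferase that opens that pathway, had 599 per kb.

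The tissue was checked against markers of liver cell types on the scale of the mean normalized count. The 5 hepatocyte markers lay between 99029 (*Ttr*) and 2155546 (*Alb*). Markers of Kupffer cells, endothelial cells, stellate cells, cholangiocytes and neutrophils reached at most 4160 (*Dcn*). The red cell markers *Hba-a1* and *Hbb-bs* are listed at 0. Why they are at 0 was not tested, so these values do not show that red cells were absent. In bulk tissue, a low level cannot be told apart from expression in few cells.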

How the data were processed

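Hepatic mRNA from 6 mice, 3 WT and 3 *Pai-1*+/-, was sequenced as 75 base single-end reads. The authors used RNA Express on BaseSpace, with STAR for alignment to mm10 and DESeq2 for the comparison, and the submitters' processing notes also name HOMER. Versions, annotation and strand setting are not given in the sources used here. The signal used is the mean normalized count in the authors' deposited table, that is counts divided by size factors and averaged over all libraries. It sums to 30045982. The same table holds the authors' log2 fold changes, standard errors, Wald statistics and p-values, and these were not used. The 6 columns of the deposited count table match no sample label and were not used. The edgeR test intended for them, with its DESeq2, filter, replicate block and leave-one-out alternatives, therefore could not be run.

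Lengths, exons and coordinates came from GENCODE M21 on GRCm38 (mm10), which matched all 35 genes and 96.4% of genes with a mean above 10 by symbol. The 75-base stretches of each longest transcript were sought on both strands in transcripts of all other genes. Promoter windows came from RefSeq. Targeting signals and protein identity were intended but not analysed here, and shared stretches took the place of identity. The genes and lists were chosen with earlier results of these data known, and the promoter measures were chosen after the levels were seen. The level of 1 further gene intended as a check is not reported here. All members are named, with the highest and lowest of the further genes. *Gnpat* was named after its value was seen, as the partner of *Agps* and *Far1*. The percentile, the ratio of medians and the search for 75-base stretches were checked on simulated data. Python 3.11.15, NumPy 2.4.6, pandas 2.3.3, Biopython 1.88 and Matplotlib 3.10.9 were used.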

Additional observations from a re-analysis of the deposited data

How the results depend on the processing

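The ratio of the medians of enzymes and peroxins, 11.7 per kb, was above 1 under each alternative tried. It was 5.82 with coding length, 6.99 with no correction for length and 10.3 from the mean of log2 values, while leaving out *Acaa1a* and *Acaa1b*, which lie on either side of the enzymes' median, or keeping only genes above a mean of 10, which all 35 are, could not move it. Alternatives chosen after seeing the data gave 9.04 with all annotated exon bases and 8.44 without the 6 genes of which over 10% of the 75-base stretches occur in another gene. Of these 6, *Pex14*, *Pex11g*, *Scp2* and *Hacl1* share them chiefly with genes that have no row in the authors' table. The median level of the 35 genes was 2282 per kb, 4943 with coding length, 5883 without length and, added later, 1545 with all exon bases. These scales differ by construction. The median percentile of the mean normalized count was 96.1 among genes above 0 and 94.7 among genes above 10. No paired analysis was possible because the count columns could be matched to no sample, and for the same reason DESeq2, no filter on low counts and leaving out each replicate were not run. The relaxed targeting signal was not run because the protein sequences were not analysed here. The columns per animal were not used, so the spread between mice and the depth of single libraries were not analysed here and no level has an error.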
